A study of Mus musculus with 8 samples.

Results

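The untreated state of the HCA-1 tumor was described from the 4 tumors of mice given saline, out of 8 tumors in the series. The members were chosen by their labels as controls, which carry the replicate numbers 1, 3, 4 and 5, and no measured value entered the choice. HCA-1 is a mouse hepatocellular carcinoma (HCC) line, and 1000000 cells of it had been placed under the liver capsule of male C3H mice. The study compared such tumors with tumors of mice given imiquimod, a Toll-like receptor 7 agonist, in phospholipid-free vesicles, and none of the treated tumors was used here. All 4 mice carried the same line in the same organ, received saline i.v. on day 17 after implantation, and had their tumors taken 3 h later. The labels give the age of the mice as 6 to 8 weeks, and the study's methods give a younger range. RNA came from whole tumors, so transcripts of HCA-1 cells, of the host's liver and of the host's stroma and leukocytes were counted together. Fewer cells of a type and less RNA per cell cannot be told apart in such samples. No label says which mice shared a cage or a day, so the spread below is the spread between these 4 tumors. All values are listed in the order tumor 1, 3, 4 and 5 unless the text says otherwise.

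HCC arises from the hepatocyte lineage, whose cells secrete most plasma proteins and carry the urea cycle, gluconeogenesis and drug metabolism under hepatocyte nuclear factors such as HNF4A. Metabolic enzymes are zoned along the lobule, with ureagenesis near the portal vein and glutamine synthesis and many cytochrome P450 enzymes near the central vein. Malignant hepatocytes often lose such genes, regain fetal or biliary ones and switch metabolic isozymes, and the surrounding bed holds fibroblasts, vessels, macrophages and lymphocytes. A tumor grown in the liver of a syngeneic, immunocompetent host therefore contains transcripts of the line and of the bed.

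The 4 libraries held 16883911 to 27687756 counted reads. More than 3 reads in each of the 4 tumors were found for 16963 of 55536 counted genes, of which 14166 are protein-coding, and a floor of 3 reads corresponded to 0.108 to 0.178 CPM, which are counts scaled to a library of 1000000 reads. Pearson correlations of log2 CPM across 14922 genes ran from 0.908 between tumors 4 and 5 to 0.983 between tumors 1 and 3. Chi-square values of the counts of every pair of tumors were 50.7 to 227 times their degrees of freedom, so none of the pairs was a single library deposited under both numbers. Tumors 4 and 5 lay at opposite ends of the first principal component, which held 65.3% of the variance. Levels were compared between genes as TPM, in which each count is divided by the exonic length of its gene and the library scaled to a sum of 1000000, and the spread of a gene over tumors as the standard deviation (SD) of log2 CPM.

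The 6 genes chosen as markers of the main cell types were above the floor in all 4 tumors. Alb (ENSMUSG00000029368, chr5:90460897-90476602 in GRCm38), the plasma carrier albumin made by hepatocytes, stood at 9102, 10656, 26186 and 3918 TPM. Tumor 4 had the most and tumor 5 the least, a 6.68-fold range. Afp (ENSMUSG00000054932, chr5:90490737-90508907 in GRCm38), the fetal counterpart of albumin and a clinical marker of HCC, was at 4.37, 3.98, 4.88 and 5.64 TPM. It varied 1.42-fold, so the tumors were rich in the adult gene and poor in the fetal gene whatever their Alb level. Mki67 (ENSMUSG00000031004, chr7:135689784-135716361 in GRCm38), which marks cycling cells, was at 93.5, 58.9, 51.6 and 61.8 TPM and highest in tumor 1. Col1a1 (ENSMUSG00000001506, chr11:94936224-94953042 in GRCm38), the main fibrillar collagen chain, was at 414, 406, 446 and 718 TPM, with tumor 5 above 3 similar tumors. Pecam1 (ENSMUSG00000020717, chr11:106654217-106750628 in GRCm38), of endothelium, was at 13.2, 14.6, 16.7 and 21.6 TPM. Ptprc (ENSMUSG00000026395, chr1:138062861-138175708 in GRCm38), which encodes the leukocyte antigen CD45, was at 11.4, 15.2, 12.9 and 6.75 TPM. These last 2 genes ran in opposite directions in tumor 5, which had the most Pecam1 and the least Ptprc. The wider list of 14 pan-leukocyte genes did not follow Ptprc, and took 0.0809, 0.0894, 0.103 and 0.0921% of TPM. Of these 14 genes, 5 were lowest in tumor 5, against 34.6% of all genes, and 9 in tumor 1, against 22.5%. In the ranking of the 16963 genes by mean TPM, Alb came 4th from the top, Col1a1 254th, Mki67 2099th, Pecam1 6974th, Ptprc 8424th and Afp 11367th. The hepatocyte marker was thus abundant while the fetal liver marker was low. Transcripts of the host's liver were counted too, and whether HCA-1 cells or host hepatocytes carried Alb was not tested.

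**Figure D1:**
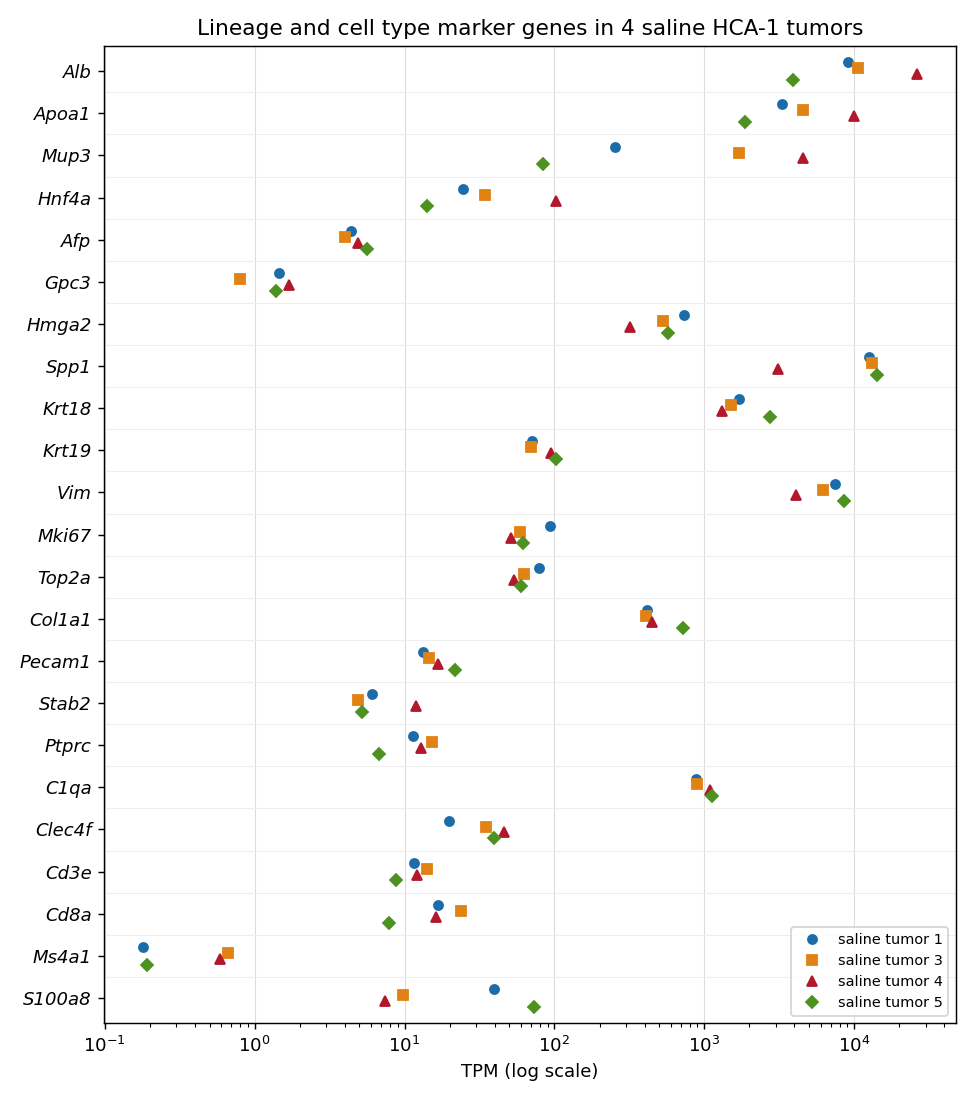
TPM on a log axis (x) of 23 lineage and cell type marker genes (y), with 1 symbol for each of the 4 saline tumors. Alb, Apoa1, Mup3 and Hnf4a were highest in tumor 4 and lowest in tumor 5, Spp1, Hmga2 and Vim were lowest in tumor 4, and Afp stayed between 3.98 and 5.64 TPM.

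The RNA was concentrated in few genes: 240 genes held 50% of all TPM, and 130 genes had a mean of at least 1000 TPM. Among nuclear protein-coding genes, the translation elongation factor gene Eef1a1 led with 17010.3 ± 4132 TPM (SD, n = 4). Alb followed with 12466 ± 9590.1 TPM and the gene of the secreted phosphoprotein osteopontin, Spp1, with 10722 ± 5132 TPM. The class I light chain gene B2m had 9413 ± 1560.0 TPM and the gene of the mesenchymal filament vimentin, Vim, 6596 ± 1941 TPM. The relative SD was 76.9% for Alb and 16.6% for B2m, so the order of these leading genes differed between tumors. The other members of the 20 most abundant were of several lineages. Apoa1, Apoe and Serpina1e encode secreted liver proteins and Cd74 the invariant chain of class II molecules. Tpt1, Rplp1, Rps15, Eef2, Actb, Lgals1, Rpl4, Rps3a1, Fth1, Rplp0 and Rpl17 serve translation, the cytoskeleton or iron storage or are otherwise widely expressed. Eef1a1 shares 59.2% of its 50-base words with other genes, so that its level is uncertain, whereas Alb, Spp1, B2m and Vim have no such overlap above 30%.

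Non-coding and mitochondrial genes shaped the TPM scale. The non-coding gene of highest TPM, Gm23935, shares all of its words with other genes and is very short. With it, genes of the miRNA class took 4.80 to 8.49% of TPM from 0.0995 to 0.169% of the counts. The 13 protein genes of the mitochondrial genome took 4.82, 9.36, 8.45 and 3.00% of TPM, most in tumor 3 and least in tumor 5. Among them, mt-Co1, a cytochrome oxidase subunit gene, had a range of 9856 to 33538 TPM and mt-Co2, of the same complex, 129 to 285 TPM. At least 99% of the words of mt-Co2, mt-Co3 and mt-Atp6 occur in other genes, which makes the low values of these 3 genes uncertain.

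Genes of the mature hepatocyte were abundant and shared an order of tumors. Plasma protein genes, a list of 30 genes, took 3.30, 3.71, 8.61 and 1.31% of TPM. All 30 were highest in tumor 4 and lowest in tumor 5, an arrangement found in 15.5% of the 14922 genes, and 20 of the 30 had the full order tumor 4, 3, 1 and 5, which 11.6% of all genes share. Apoa1, the main protein of high-density lipoprotein, was at 3279.7, 4527, 9958 and 1874 TPM. The thyroxine carrier Ttr had a range of 889.7 to 5389 TPM, the fetuin Ahsg of 1105 to 4471 TPM and Apob, the scaffold of very-low-density lipoprotein, of 28.0 to 296 TPM. Exceptions to the full order were genes higher in tumor 1 than in tumor 3. Hpx, the heme carrier hemopexin, was such a gene at 3450.1, 1534, 3829 and 683 TPM. Fga, a fibrinogen chain, was another at 1786, 892, 2176 and 321 TPM. Without tumor 4 the mean share of the list fell from 4.23% ± 3.10 to 2.78%, and the mean of Alb from 12466 to 7892 TPM.

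The promoters of Alb and Afp, which neighbor each other on chromosome 5 and differed most among adult and fetal pairs, are shown with that of Mup3, the most abundant male-biased gene. Each line gives the 250 bases before the RefSeq transcription start in GRCm38.p6. The exact letters TATAAA, 1 spelling of the TATA box, were searched on both strands and are in capitals.
Alb, chr5:90460620-90460869, plus strand: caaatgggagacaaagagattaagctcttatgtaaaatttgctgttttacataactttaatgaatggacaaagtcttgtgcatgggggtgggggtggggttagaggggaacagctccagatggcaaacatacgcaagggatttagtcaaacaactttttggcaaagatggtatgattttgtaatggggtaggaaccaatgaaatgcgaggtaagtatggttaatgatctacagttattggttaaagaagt
Afp, chr5:90490464-90490713, plus strand: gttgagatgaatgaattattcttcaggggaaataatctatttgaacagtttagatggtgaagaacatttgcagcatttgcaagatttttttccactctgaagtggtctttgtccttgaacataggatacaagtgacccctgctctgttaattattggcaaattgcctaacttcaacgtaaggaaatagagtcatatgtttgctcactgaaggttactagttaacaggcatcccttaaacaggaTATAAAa
Mup3, chr4:62087318-62087567, minus strand: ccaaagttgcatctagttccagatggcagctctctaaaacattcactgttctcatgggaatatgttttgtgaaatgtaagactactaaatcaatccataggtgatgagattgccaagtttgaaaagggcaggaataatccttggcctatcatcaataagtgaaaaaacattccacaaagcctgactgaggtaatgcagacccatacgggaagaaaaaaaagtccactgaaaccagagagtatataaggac
These exact letters occur 1 time in the Afp window and not in the windows of Alb and Mup3. Other spellings were not searched, such as the tatataag near the end of the Mup3 window. The Alb and Afp windows end short of the starts given above for these genes, and the bases between were not searched. The search therefore does not show that Alb or Mup3 lacks a TATA box. The exact letters were found in 4 of the 23 plasma protein genes that have an entry in the promoter table (17.4%). They were also found in 2 of 10 male-biased genes, 0 of 17 mitosis genes and 12.3% of 32536 promoters of the same length. Afp lay 11.03 below Alb in mean log2 ratio of TPM.

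Hepatocyte transcription factor genes were lower in level, and 11 of 18 had the full order tumor 4, 3, 1 and 5, against 11.6% of all genes. Hnf4a, which maintains the hepatocyte program, was at 24.4, 34.4, 102 and 14.1 TPM. Of the 18 genes in the list, 15 were highest in tumor 4, against 28.7% of all genes, and 14 lowest in tumor 5, against 34.6%. The bile acid receptor gene Nr1h4 had a range of 10.9 to 68.1 TPM and Cebpa, a factor of mature hepatocytes, of 51.4 to 162 TPM. Onecut2, a factor of the biliary and hepatocyte lineage, was an exception at 22.6, 23.1, 20.1 and 41.2 TPM, with most in the tumor of least Alb. The pioneer factor gene Foxa1 was another, at 39.2, 39.6, 28.8 and 24.7 TPM, and it was lower in tumors 4 and 5 than in tumors 1 and 3.

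Zoned metabolism was represented from both sides of the lobule. The 16 periportal genes took 0.1002, 0.1975, 0.4522 and 0.04556% of TPM. Each of the 16 was highest in tumor 4, against 28.7% of all genes. Cps1, which brings ammonia into the urea cycle, was at 47.7, 124, 249 and 15.2 TPM. The urea cycle gene Ass1 had a range of 110.0 to 748 TPM, and the gluconeogenic genes Pck1 and G6pc of 10.5 to 203 TPM and 3.05 to 100.4 TPM. The 16 pericentral genes took 0.114, 0.211, 0.557 and 0.0555% of TPM, and 14 of 14 past the filter were highest in tumor 4. Cyp2e1, the ethanol-inducible P450 gene, was at 472, 909, 2698 and 262 TPM. Glutamine synthetase (Glul) had a range of 75.2 to 374 TPM. The Wnt target genes Axin2 and Lgr5 were low, at 0.493 to 3.11 TPM and 0.162 to 0.720 TPM. Leaving out tumor 4 lowered the mean periportal share from 0.199% ± 0.180 to 0.114% and the mean pericentral share from 0.234% ± 0.224 to 0.127%.

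Male-biased liver genes, which pulsed growth hormone maintains in adult males, spread the most of the lists with at least 5 genes past the filter. Their summed level was 0.0724, 0.393, 1.12 and 0.0271% of TPM, a 41.4-fold range. All 14 genes past the filter were highest in tumor 4 and lowest in tumor 5, against 15.5% of all genes. Mup3, a major urinary protein gene, stood at 253, 1718, 4542 and 84.5 TPM. The steroid dehydrogenase gene Hsd3b5 was at 3.76, 47.2, 169 and 3.61 TPM. Both genes were much higher in tumors 3 and 4 than in tumors 1 and 5. Mup genes are near copies of each other, and 50.5 to 97.6% of the words of Mup1, Mup7, Mup9, Mup10, Mup12, Mup13, Mup14, Mup17 and Mup20 occur in other genes, so the split of reads among them is uncertain. Without the Mup genes the 9 remaining genes took 0.0134, 0.0418, 0.118 and 0.00787%, still a 14.98-fold range. Without tumor 4 the mean share of the full list was 0.164% in place of 0.404%.

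To see which hepatocyte genes moved apart from Alb, levels were set against Alb in the same tumor, a scale chosen after the values were seen. The median log2 ratio of 29 plasma protein genes to Alb moved by 0.21 between tumors, while single genes of the list moved up and down by more. Per 1000 TPM of Alb, Apoa1 stood at 360.3, 425, 380.3 and 478 TPM. Serpina1b, an antitrypsin gene, had a range of 49.1 to 63.3 TPM on that scale, and the transcription factor gene Hnf4a of 2.68 to 3.90 TPM. Ahsg was at 191, 143, 171 and 282 TPM, highest in tumor 5, and Hpx at 379, 144, 146 and 174 TPM, highest in tumor 1. The fibrinogen genes Fgb and Fgg had ranges of 55.5 to 145 TPM and 70.8 to 195 TPM, both highest in tumor 1. The median ratio of 15 male-biased genes moved by 2.76. Per 1000 TPM of Alb, Mup3 was at 27.8, 161, 173 and 21.6 TPM and Hsd3b5 at 0.414, 4.43, 6.46 and 0.922 TPM. Tumors 1 and 5 were thus low in both genes relative to their own Alb. The periportal P450 gene Cyp2f2, at 0.663, 7.05, 6.63 and 1.03 TPM, and the carbonic anhydrase gene Car3, at 8.89, 57.2, 73.1 and 15.1 TPM, were divided in the same way.

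Acute phase and complement genes took 0.886, 0.465, 1.10 and 0.241% of TPM. Of 23 past the filter, 16 were highest in tumor 4, against 28.7% of all genes, and 6 in tumor 1, against 20.8%. In tumor 5, 17 were lowest, against 34.6% of all genes. A subset of strongly inducible genes was highest in tumor 1. Saa1, a major inducible serum amyloid A gene of hepatocytes, was at 589, 39.8, 95.5 and 33.7 TPM. Per 1000 TPM of Alb it was at 64.8, 3.73, 3.65 and 8.60 TPM, so that tumor 1 stood above the others on both scales. Its neighbor Saa2 had a range of 1.76 to 58.9 TPM per 1000 TPM of Alb, the orosomucoid gene Orm2 of 2.05 to 34.3 TPM and haptoglobin (Hp) of 106 to 314 TPM. Orm1 was at 147, 35.6, 36.3 and 33.9 TPM and Fga at 196, 83.7, 83.1 and 81.9 TPM per 1000 TPM of Alb. Tumor 1 was the highest in each of these 6 genes relative to Alb, and the other 3 tumors nearly coincided in Orm1 and Fga. The complement gene C3 was different, at 89.3, 49.7, 54.4 and 94.4 TPM per 1000 TPM of Alb, with tumor 5 slightly above tumor 1. Hamp, which encodes the iron hormone hepcidin, was at 166, 1219, 2474 and 516 TPM. It was lowest in tumor 1, also per 1000 TPM of Alb, at 18.2, 114, 94.5 and 132 TPM. Saa3, a serum amyloid gene made mostly outside hepatocytes, was high in tumor 5, at 3.84, 2.65, 2.48 and 26.0 TPM. Saa1 and Saa2 share 32.1% and 31.8% of their words with other genes, and their split is less certain than their sum.

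**Figure D2:**
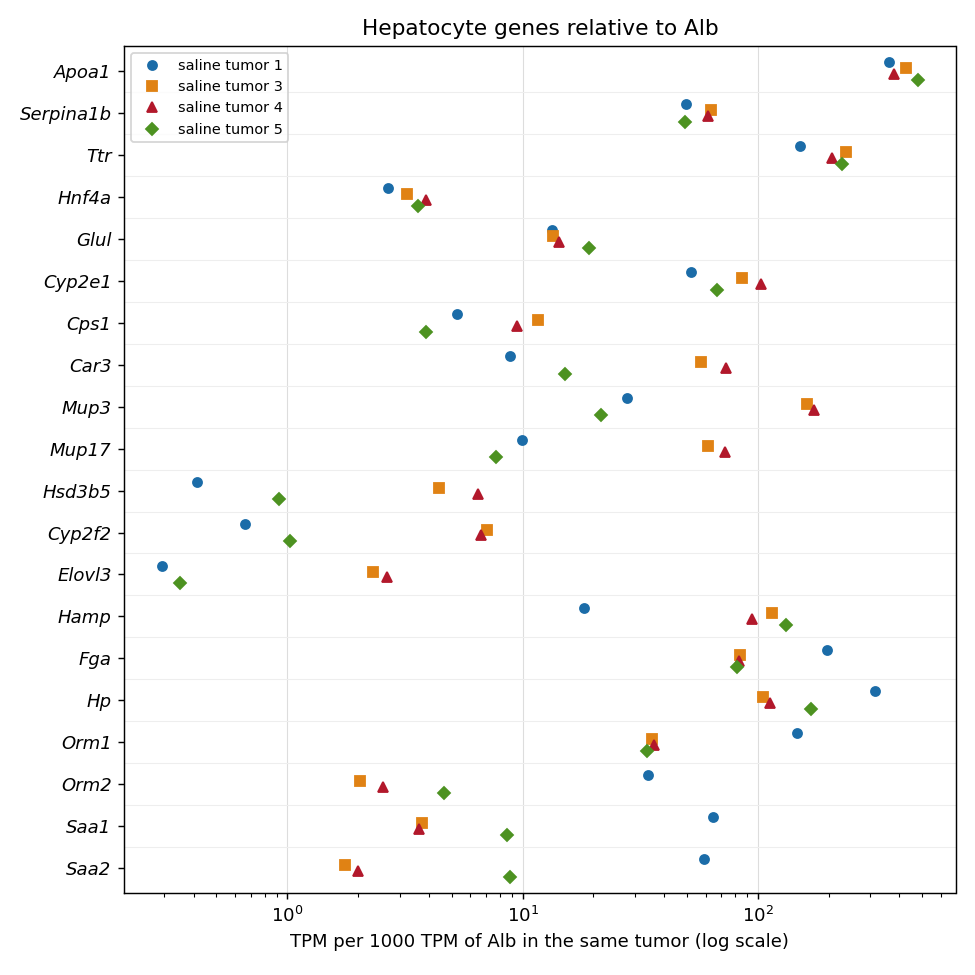
TPM per 1000 TPM of Alb in the same tumor, on a log axis (x), for 20 hepatocyte genes (y), with 1 symbol per saline tumor. Apoa1 stayed between 360 and 478, Mup3 was at 161 and 173 in tumors 3 and 4 against 27.8 and 21.6 in tumors 1 and 5, and Saa1 was at 64.8 in tumor 1.

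The oncofetal list was mostly low in level, with a few abundant members. Of the 25 genes in the list, 18 were above the floor in all 4 tumors, 3 had a mean of at least 100 TPM and 9 a mean under 1 TPM. Gpc3, a cell surface antigen of HCC, was at 0.794 to 1.70 TPM and the imprinted RNA H19 at 1.62 to 5.02 TPM. The fetal liver genes Dlk1, Lin28b, Sall4 and Igf2bp1 had a mean of less than 0.1 TPM each, and so did Igf2, although 64.6% of its exonic bases lie in exons of another gene and its level is uncertain. In contrast, Hmga2, a fetal chromatin protein gene silent in most adult tissue, was at 730.3, 534, 320.4 and 574 TPM. It ranked 234th of all genes and was lowest in tumor 4, as 26.1% of all genes were. The aldo-keto reductase genes Akr1b8 and Akr1c18, at 98.2 to 222 TPM and 63.6 to 161 TPM, and the RNA-binding protein gene Igf2bp2, at 15.5 to 36.2 TPM, were also lowest in tumor 4. Among the 17 genes of the list past the filter, 7 were lowest in tumor 4, against 26.1% of all genes, and 6 highest, against 28.7%.

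Biliary and progenitor markers were led by Spp1, at 12516, 13113, 3092 and 14168 TPM. Tumors 1, 3 and 5 were alike in it and tumor 4 was 4.58-fold below tumor 5. The list took 1.352, 1.402, 0.3706 and 1.502% of TPM, nearly all of it Spp1, and 0.101, 0.0908, 0.0614 and 0.0853% without Spp1. Sox9, a biliary and progenitor transcription factor gene, was at 119, 114, 58.7 and 156 TPM, again lowest in tumor 4. Of the 14 genes of the list past the filter, 5 were lowest in tumor 4, against 26.1% of all genes, and 5 highest, against 28.7%. The list thus did not move as a whole. The hyaluronan receptor gene Cd44 had a range of 284 to 634 TPM, the biliary keratin gene Krt19 of 69.3 to 102 TPM and the tetraspanin gene Tspan8 of 98.5 to 119.6 TPM. Other genes of the biliary lineage were low, with the keratin gene Krt7 at 0.593 to 1.35 TPM and the chloride channel gene Cftr at 0.109 to 0.393 TPM.

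Epithelial and mesenchymal genes were expressed together. Krt18, a keratin of simple epithelium, was at 1709, 1507, 1308 and 2730.1 TPM, and its partner Krt8 had a range of 791 to 1377 TPM. Vim was at 7505, 6183, 4092 and 8606 TPM. Fibronectin (Fn1), a matrix protein, was at 3158, 1545, 720.4 and 2056 TPM. These 4 abundant genes were lowest in tumor 4. Of the 17 genes of the list past the filter, 6 were lowest in tumor 4, against 26.1% of all genes, and 10 in tumor 5, against 34.6%. E-cadherin (Cdh1) had a range of 17.7 to 40.8 TPM and N-cadherin (Cdh2) of 23.7 to 36.6 TPM. Of the repressors of Cdh1, Snai1 was at 33.9 to 55.1 TPM, Zeb1 at 11.4 to 19.7 TPM and Twist1 at 0.418 to 1.67 TPM. Of the splicing regulators of epithelium, Esrp1 was at 0.205 to 0.352 TPM and Esrp2 at 3.13 to 21.9 TPM, the latter in the order of the hepatocyte genes. Stromal cells also express Vim and Fn1 and hepatocytes express Cdh1, and these levels do not show which cells carried them.

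Metabolic isozymes were compared within each tumor as the log2 ratio of 2 genes for the same step, in most pairs the form common in HCC or other tissues over the form of adult liver. With 4 tumors the smallest p of a two-sided exact sign-flip permutation test is 0.125, so counts of tumors are given and no test. Pkm, the pyruvate kinase of dividing cells, exceeded the liver form Pklr in 4 of 4 tumors, by 8.61, 7.29, 4.28 and 10.35 on the log2 scale. Ldha, which favors lactate formation, exceeded Ldhb in 4 of 4, by 7.38, 7.28, 6.33 and 7.15. Ldha is also the main form of adult liver, so this pair does not set a liver form against another. In these 2 of the 15 pairs the first gene led in every tumor. Slc2a1 against the liver glucose transporter gene Slc2a2 gave log2 ratios of 4.07, 3.25, -0.08 and 5.76. Acsl4 against Acsl1, which activate fatty acids, gave 1.90, 0.81, -0.42 and 1.70. In both pairs the form of other tissues was higher in tumors 1, 3 and 5 and lower in tumor 4. The second gene led in all 4 tumors in 6 pairs, among them Scd1 over Scd2 (-2.70, -4.11, -5.31 and -2.06). Fabp1, the liver fatty acid binding protein gene, led Fabp5 with log2 ratios of -4.57, -6.12, -7.86 and -3.89. For S-adenosylmethionine synthesis, Mat2a against the liver form Mat1a gave -0.53, -0.95, -1.96 and 1.49, so that tumor 5 alone favored the other form. Tumor 4 had the lowest ratio in 14 of the 15 pairs and tumor 5 the highest in 12. Pkm shares 34.4% of its words with other genes, which makes its ratio less certain than that of Ldha.

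**Figure D3:**
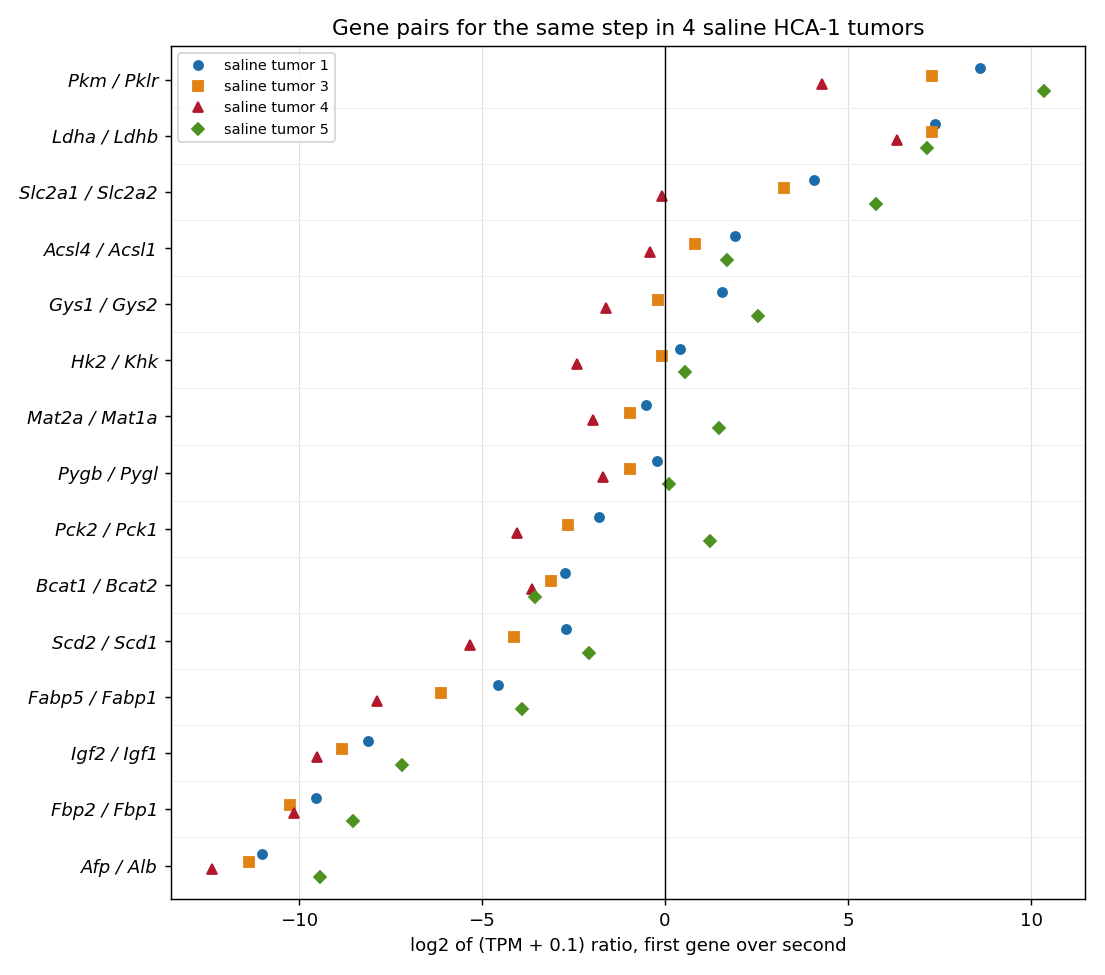
Log2 ratio of (TPM + 0.1) of the first over the second gene (x) for 15 gene pairs (y), with 1 symbol per saline tumor and a line at 0. Tumor 4 lies farthest to the left in most pairs and tumor 5 farthest to the right, and Pkm and Ldha exceed their partners in all 4 tumors.

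Proliferation genes were even across the tumors. The 22 mitosis genes each had a mean between 10 and 100 TPM and together took 0.0992, 0.0785, 0.0738 and 0.0837% of TPM. Top2a, a topoisomerase of dividing cells, was at 79.5, 63.0, 53.8 and 60.2 TPM. Tumor 1 was highest in 17 of the 22, against 20.8% of all genes, with a median deviation of 0.26 on the log2 scale. The 20 DNA replication genes took 0.0682 to 0.0913% of TPM, with the replication clamp gene Pcna at 133 to 194 TPM. The median SD of log2 CPM was 0.23 for the mitosis genes and 0.28 for the replication genes, against 0.33 over all genes. Fen1, a flap endonuclease gene listed at 0.682 to 1.49 TPM, is uncertain, since 84.2% of its exonic bases overlap another gene.

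Several genes that drive entry into the cycle were abundant. Ccnd1, which encodes cyclin D1, was at 408, 267, 244 and 254 TPM. Its partner Cdk4 had a range of 128 to 238 TPM and Cdk6 of 16.3 to 18.8 TPM. Myc was at 164, 137, 79.6 and 227 TPM, with tumor 5 highest and tumor 4 lowest, while Mycn was at 0.885 to 2.21 TPM and the telomerase gene Tert at 1.21 to 2.62 TPM. The p53 target genes Cdkn1a, Mdm2 and Ccng1 were at 81.0 to 154, 95.8 to 229 and 146 to 266 TPM. The tumor suppressor gene Cdkn2a was at 1.70 to 2.57 TPM. Among growth factor genes, the EGF receptor ligand gene Areg had a range of 68.0 to 231 TPM and the angiogenic factor gene Vegfa of 126 to 240.0 TPM. Among receptor genes, Met had a range of 53.9 to 108 TPM and Egfr of 12.3 to 37.4 TPM. Fgfr1, at 115, 83.2, 41.5 and 139.6 TPM, exceeded Fgfr4, the hepatocyte member of its family, at 6.08, 6.03, 23.9 and 4.12 TPM, in all 4 tumors.

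Most hypoxia-responsive genes were lowest in tumor 4. Of 20 such genes, 15 had their minimum there, against 26.1% of all genes, and the list took 0.189, 0.190, 0.0891 and 0.184% of TPM. Slc2a1, a glucose transporter gene, was at 242, 264, 68.7 and 324 TPM. Ndrg1 had a range of 163 to 451 TPM, the vasodilator gene Adm of 9.79 to 59.3 TPM and Car9, a pH regulator gene, of 6.78 to 14.1 TPM. Heat shock and ER stress genes took 0.421, 0.363, 0.254 and 0.513%, with 12 of 15 highest in tumor 5, against 34.2% of all genes, and 12 of 15 lowest in tumor 4. The small heat shock protein gene Hspb1 was at 111.8, 99.96, 54.30 and 311.1 TPM, although 51.7% of its words occur in other genes. Immediate early genes took 0.160, 0.152, 0.102 and 0.238%, with 11 of 16 highest in tumor 5, against 34.2% of all genes. Of these, Junb had a range of 195 to 546 TPM and Egr1 of 86.6 to 217 TPM. Stress and early genes thus shared their highest and lowest tumors.

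The summed level of fibroblast genes varied 1.53-fold between the tumors, against 6.56-fold for plasma protein genes. Fibroblast and matrix genes took 0.334, 0.325, 0.309 and 0.473% of TPM, with 12 of 24 highest in tumor 5, against 34.2% of all genes, and 10 in tumor 4, against 28.7%. Sparc, a matricellular protein gene, was at 672, 682, 642 and 846 TPM. Col3a1 had a range of 199 to 243 TPM, Col6a1 of 319 to 892 TPM and the protease inhibitor gene Timp1 of 312 to 609 TPM. Genes that mark fibroblasts as cells were lower, with the receptor gene Pdgfra at 3.96 to 4.79 TPM and the activation marker gene Fap at 0.368 to 1.02 TPM. Stellate cell, pericyte and smooth muscle genes took 0.0154 to 0.0262%, with smooth muscle actin (Acta2) at 55.8 to 103 TPM and the retinol enzyme gene Lrat of quiescent stellate cells at 0.830 to 3.47 TPM. Tagln, a smooth muscle gene listed at 1.59 to 2.05 TPM, is uncertain, since 67.9% of its exonic bases overlap another gene.

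Endothelial genes took 0.0222, 0.0238, 0.0305 and 0.0404% of TPM. Of 22, 13 were highest in tumor 5, against 34.2% of all genes, and 13 lowest in tumor 1, against 22.5%. The shares of the stellate cell list and of class II genes had the same order of tumors. Plvap, of fenestrated and tumor vessels, was at 45.2, 52.5, 68.7 and 98.9 TPM. The tip cell gene Esm1 had a range of 4.25 to 21.9 TPM. Liver sinusoidal genes took 0.0412, 0.0375, 0.0338 and 0.0308%, with the growth factor gene Bmp2 at 252, 195, 67.9 and 145 TPM. Of the 11 past the filter, 10 were highest in tumor 4, against 28.7% of all genes, and Bmp2, with its highest level in tumor 1, was not among them. The scavenger receptor gene Stab2 was at 6.07, 4.90, 11.9 and 5.21 TPM, and the lectin gene Clec4g had a range of 4.07 to 15.9 TPM.

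Macrophage genes took a larger share of TPM than any lymphoid list. The share was 1.14, 1.07, 1.59 and 1.02%, and 0.553, 0.552, 0.658 and 0.578% without Apoe and Fn1, which hepatocytes also express. Of 24 genes, 15 were highest in tumor 4, against 28.7% of all genes, and 10 lowest in tumor 5, against 34.6%. Lyz2, the lysozyme gene of macrophages and neutrophils, was at 2222, 2402, 2805 and 1873 TPM. The complement gene C1qa was at 876, 895, 1096 and 1120.5 TPM, a 1.28-fold range. Csf1r, the growth factor receptor gene of macrophages, had a range of 41.9 to 82.8 TPM, Adgre1, which encodes F4/80, of 25.4 to 59.2 TPM and Cd68 of 202 to 302 TPM. Genes of the resident Kupffer cell were lower. Clec4f, the lectin gene that defines it, was at 19.7, 35.1, 46.3 and 39.5 TPM, and 10 of 11 genes in the list were highest in tumor 4, against 28.7% of all genes. The efferocytosis receptor gene Timd4 had a range of 7.34 to 14.8 TPM.

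Class II antigen presentation genes were among the most even. Class II genes took 0.467, 0.530, 0.587 and 0.598% of TPM. Cd74 was at 2907, 3084, 3669 and 4008 TPM, and the class II chain gene H2-Ab1 had a range of 332 to 460.2 TPM. Class I and peptide loading genes took 1.19 to 1.70%, with H2-K1 at 1018 to 1753 TPM, and 12 of 15 were highest in tumor 3, against 16.3% of all genes. Of dendritic cell genes, the chemokine receptor gene Xcr1 of cross-presenting cells was at 5.71 to 11.3 TPM, the integrin gene Itgax at 30.9 to 43.4 TPM and the plasmacytoid marker gene Siglech at 2.05 to 3.73 TPM.

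Lymphoid genes were measurable at low level. T cell genes took 0.05002, 0.0598, 0.04116 and 0.05005% of TPM. Of the 21 past the filter, 15 were highest in tumor 3, against 16.3% of all genes, and 11 lowest in tumor 5, against 34.6%. The receptor constant gene Trbc2 made up much of the T cell share, at 269.6, 272, 176 and 303 TPM, with most in tumor 5. Cd3e, a chain of the T cell receptor complex, was at 11.6, 14.2, 12.1 and 8.81 TPM. The cytotoxic T cell coreceptor gene Cd8a was at 16.6, 24.0, 16.2 and 7.88 TPM, and Cd4 had a range of 3.86 to 8.74 TPM. Unlike Trbc2, Cd3e and Cd8a were lowest in tumor 5. The regulatory T cell factor gene Foxp3 had a range of 1.33 to 3.38 TPM. NK cell and cytotoxic genes took 0.0195, 0.0262, 0.0164 and 0.00937%, and all 13 past the filter were lowest in tumor 5, against 34.6% of all genes. Prf1, which encodes perforin, was at 40.9, 52.7, 29.1 and 7.68 TPM, and granzyme B (Gzmb) had a range of 9.45 to 29.6 TPM. The NK receptor gene Ncr1 was at 0.811 to 3.51 TPM, whereas Klra8 had no read in any of the 4 tumors, which allows up to 0.178 CPM.

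B lineage genes covered a wide range of levels, with 3 of 18 at a mean of at least 100 TPM and 4 under 1 TPM. Ms4a1, which encodes the surface marker CD20, was at 0.179 to 0.659 TPM. Igkc, an immunoglobulin constant gene transcribed mainly by plasma cells, was at 267, 633, 1994 and 279 TPM. It was highest in tumor 4, and the joining chain gene Jchain followed it there, with a range of 7.21 to 52.9 TPM.

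Granulocyte genes divided the tumors in another way. The neutrophil list took 0.0183, 0.00749, 0.00658 and 0.0338% of TPM. S100a9, an alarmin gene of neutrophils, was at 72.6, 14.7, 9.22 and 143 TPM, with tumor 5 first, then tumor 1, and tumors 3 and 4 low. Ngp, a granule gene of immature neutrophils, was at 4.20, 0.0795, 0.0960 and 24.0 TPM. Of the other granule genes, Camp had a range of 0.310 to 12.8 TPM and Elane of 0 to 6.55 TPM, and both were highest in tumor 5. Ly6g, a defining surface marker of neutrophils, was at 0, 0.516, 0 and 1.62 TPM, near the floor. Leaving out tumor 5 lowered the mean share of the list from 0.0166% ± 0.0127 to 0.0108%. Of 7 mast cell, basophil and eosinophil genes past the filter, 5 were highest in tumor 4, against 28.7% of all genes. The mast cell protease gene Mcpt4 was at 20.2, 34.5, 74.2 and 26.2 TPM. The eosinophil peroxidase gene Epx stayed at 0 to 0.0620 TPM.

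Genes of innate sensing were low to moderate. Tlr7, which encodes the receptor of imiquimod, was at 5.41, 5.02, 6.38 and 4.53 TPM. It ranked 11013th of 16963 genes, with a 1.41-fold range over tumors. Tlr2, Tlr4 and Tlr9 had ranges of 23.01 to 26.81, 13.9 to 38.3 and 1.84 to 3.17 TPM, and the adaptor gene Myd88 of 31.1 to 38.5 TPM. Of the interferon genes, Ifna1, Ifna2, Ifna5, Ifnl2 and Ifnl3 had no read in the 4 tumors, Ifnb1 had a range of 0 to 0.518 TPM and Ifng of 2.23 to 7.13 TPM. The receptor subunit genes Ifnar1 and Ifnar2 were at 25.9 to 31.6 TPM and 40.7 to 49.3 TPM. Ligands of type I were thus near the floor while their receptor was expressed. Interferon-stimulated genes took 0.0940, 0.112, 0.0755 and 0.111%, and 14 of 24 were highest in tumor 3, against 16.3% of all genes. Isg15, a ubiquitin-like modifier gene, was at 52.5, 65.1, 33.8 and 81.2 TPM and the tetherin gene Bst2 had a range of 209 to 355 TPM.

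Checkpoint, suppressive and chemokine genes varied somewhat more than the median gene. The median SD of log2 CPM was 0.47 for the 31 checkpoint genes and 0.49 for the 27 chemokine genes past the filter. Cd274, which encodes PD-L1, was at 38.5, 68.7, 32.7 and 22.1 TPM, highest in tumor 3. Havcr2, which encodes TIM-3, was at 199, 169, 87.3 and 157 TPM. Tigit had a range of 21.8 to 41.6 TPM and Pdcd1 of 14.1 to 26.4 TPM. Arg1 and Tdo2, enzyme genes of arginine and tryptophan breakdown that hepatocytes also express, had ranges of 75.8 to 504 TPM and 17.5 to 331 TPM in the order of the hepatocyte genes. Ccl8, a monocyte attractant, was the most abundant chemokine gene at 422, 719, 707 and 349.9 TPM. Cxcl9, which attracts T cells, had a range of 77.0 to 148 TPM and Ccl2 of 73.6 to 104 TPM.

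**Figure D4:**
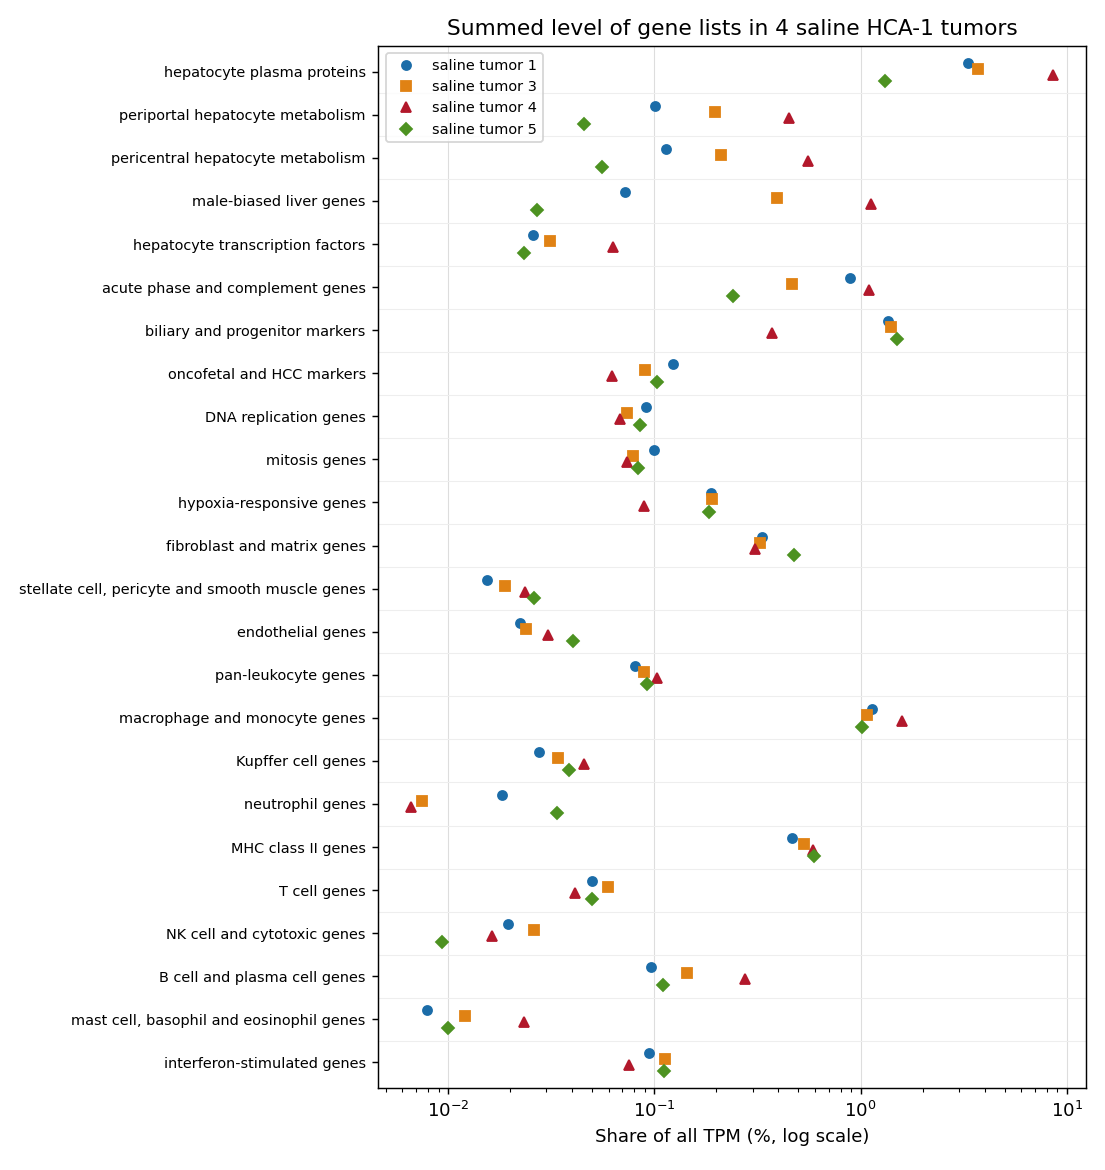
Share of all TPM taken by 24 gene lists (y), in percent on a log axis (x), with 1 symbol per saline tumor. The hepatocyte lists range from tumor 5 (lowest) to tumor 4 (highest), whereas mitosis, replication, pan-leukocyte and class II genes stay within a 1.35-fold range.

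Markers of other tissues differed in level. Striated muscle genes took 0.000462 to 0.000786% of TPM, and 10 of the 12 exocrine pancreas genes had a mean under 1 TPM. The elastase gene Cela1 stood apart from them at 28.6 to 31.6 TPM. Adipoq and Lep, hormone genes of adipocytes, had no read in the 4 tumors. The adipocyte list took 0.0155, 0.0674, 0.199 and 0.0132%. Its highest gene in every tumor was Car3, which hepatocytes also express, at 80.9, 609.7, 1914 and 59.1 TPM. Erythroid genes took 0.116, 0.0438, 0.0423 and 0.0752%. The globin gene Hbb-bs was at 614, 236, 203 and 336 TPM, highest in tumor 1, although 65.8% of its words occur in other genes. The labels give male hosts, and the Y-linked genes Ddx3y and Eif2s3y were expressed in all 4 tumors at 55.5 to 89.8 TPM and 48.4 to 56.3 TPM, beside Xist at 1.62 to 3.38 TPM. Msln, a gene of the mesothelium that also covers the liver, was at 96.7, 98.6, 145 and 124 TPM, whereas the mesothelial genes Upk3b and Wt1 stayed at 0.118 to 1.97 TPM and 1.84 to 3.77 TPM.

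Spread across the tumors was uneven among gene lists. The median SD of log2 CPM over 14922 genes was 0.33, with quartiles of 0.22 and 0.49, and the common dispersion from edgeR was 0.115, a biological coefficient of variation of 33.9%. An SD over 1 was found in 804 genes (5.39%). Of these, 662 were highest in tumor 4, against 28.7% of all genes, and 554 followed the order tumor 4, 3, 1 and 5, against 11.6%. Over lists with at least 5 genes past the filter, the medians ran from 2.66 for male-biased genes, 1.55 for periportal and 1.40 for acute phase genes down to 0.23 for mitosis and class II genes. Without tumor 5 the acute phase value was 0.75. Pan-leukocyte genes had 0.30, macrophage genes 0.32 and fibroblast genes 0.37. Among protein-coding genes with a mean of at least 5 CPM, those that spread the most were Mup12 (3.50), Mup21 (3.38), Mup7 (3.31), Mup13 (3.04), the methyltransferase gene Inmt (2.97), Mup9 (2.96), Cyp2a5 (2.82) and Hsd3b5 (2.80). The least spread belonged to the SUMO ligase gene Pias1 (0.01), with Fkbp3, Pcbp1, Usp42, Sra1, Gstm5, Tm9sf1, Atp5c1 and Tmem9b at 0.02 and the monocyte receptor gene Cd14 at 0.03.

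**Figure D5:**
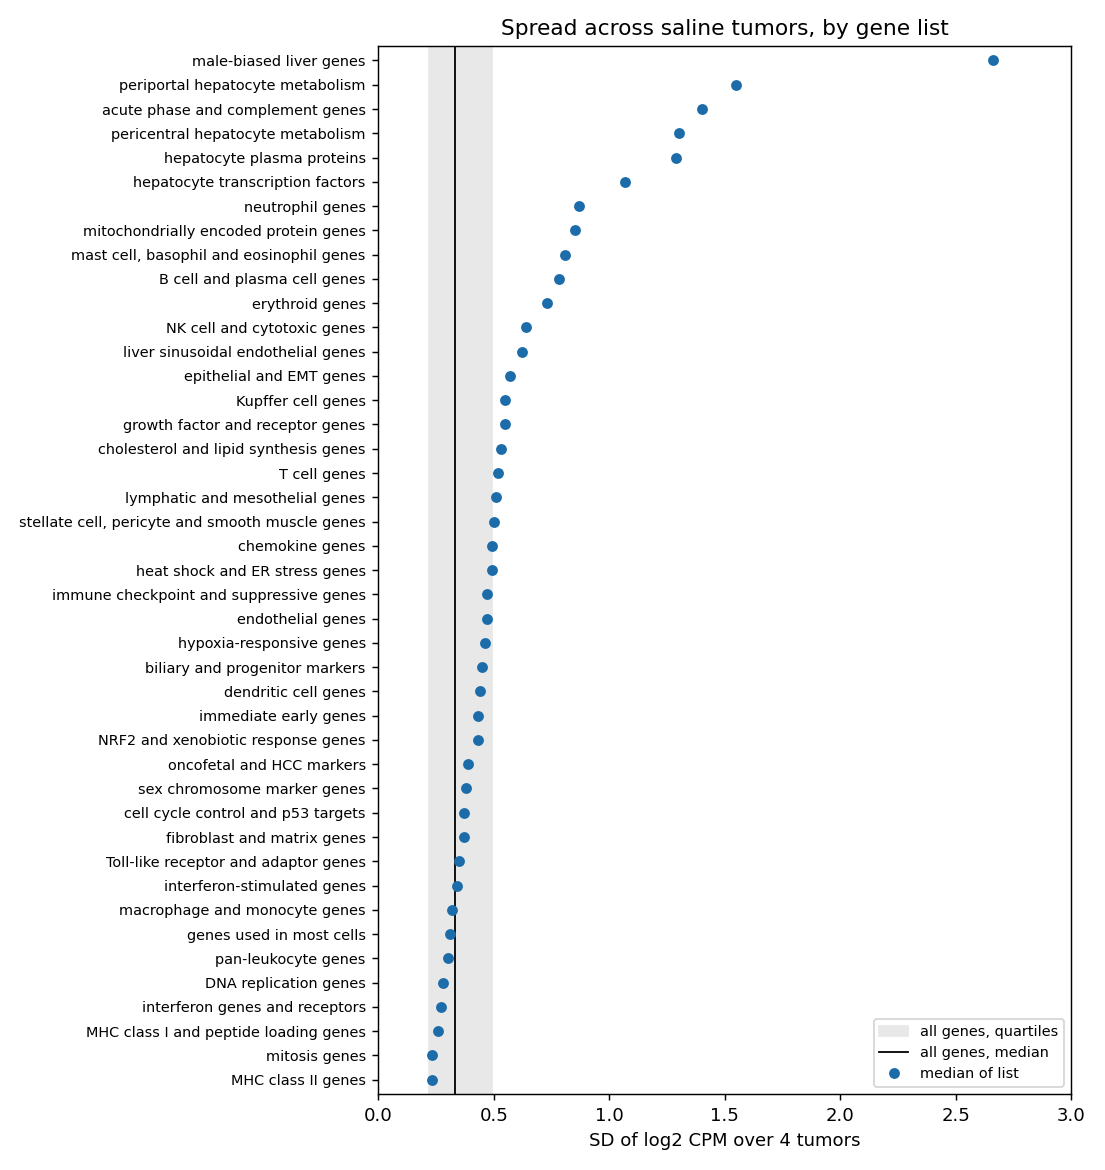
Median SD of log2 CPM over the 4 saline tumors (x) of each gene list with at least 5 genes past the filter (y), with the median and quartiles over all 14922 genes as a line and a band. The 6 hepatocyte and acute phase lists lie above 1, and the mitosis and class II lists lie lowest at 0.23.

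The genes by which each tumor departed most from the other 3 overlapped in part. Mup12 was among them for every tumor, at -3.62, 2.65, 5.21 and -4.25 on the log2 CPM scale. Tumor 1 was highest above the others in Saa2 (3.97 on the log2 CPM scale), Saa1 (3.48), Orm2 (3.30), the hepatokine gene Fgl1 (2.18) and Orm1 (1.81), and farthest below in Inmt (-3.80). Tumor 3 was below the others in Saa2 (-2.29), in Gpnmb (-2.24), a lysosomal macrophage glycoprotein gene, and in the microglia and macrophage gene Fcrls (-1.60), and above them in Mup21 (3.09). Tumor 4 was above in Mup12 (5.21) and Mup7 (5.01) and below in S100a9 (-2.41), the muscle cadherin gene Cdh15 (-2.24), Adm (-2.23), Spp1 (-2.02) and the matricellular gene Ccn3 (-1.99). Tumor 5 was below in Mup13 (-4.83) and Cyp2c29 (-4.66), and above in the odorant receptor gene Olfr1454 (3.59), in Saa3 (3.00) and in the predicted genes Gm10800 (3.72), Gm21738 (3.14) and Gm47283 (2.79). Other genes hold 29.9% of the words of Gm10800, 40.2% of those of Gm21738 and 60.3% of those of Gm47283. Only 16.8% of all genes were lowest in tumor 3.

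Some values of the libraries also differed between the tumors. Counts from mitochondrially encoded genes made up 2.29, 4.73, 4.19 and 1.37% of the libraries, and those of ribosomal RNA genes 0.557, 0.350, 0.490 and 0.176%. In tumor 5, the library with the fewest reads, the median deviation from the group mean rose from -0.30 in the genes below the lower quartile of GC content to 0.31 in those above the upper quartile. The same 2 values were 0.09 and -0.14 for tumor 1, 0.18 and -0.16 for tumor 3, and 0.00 and -0.02 for tumor 4. The part of GC content and of RNA quality in the gene differences was not tested.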

How the data were processed

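Read counts per gene of the 4 saline tumors, as deposited by the authors for 55536 genes, were used without change. Per the labels, total RNA of whole tumors was made into mRNA libraries, reads were trimmed with Trimmomatic 0.38, aligned with HISAT2 2.1.0 and counted with featureCounts 2.0.0. The study's methods name TopHat and HTSeq in their place, and this difference could not be resolved from the sources used here. Whether counting used strand is not given there, so overlapping genes are uncertain. A normalized signal deposited by the authors, which equals the counts divided by a size factor, served for gene symbols only. No column of the authors' own comparisons was used.

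All identifiers matched GENCODE M21 (GRCm38). TPM was computed from the counts and the bases covered by any annotated exon of each gene. The spread of each gene was the SD of log2 CPM after edgeR 4.0.16 TMM scaling with a prior count of 2 and the filterByExpr filter, and the dispersion came from edgeR estimateDisp with an intercept only. R 4.3.3, DESeq2 1.42.0, Python 3.11.15 and pandas 2.3.3 were used. The spread and dispersion steps were tested on simulated data. Totals of 16883911 to 27687756 counts set a floor of 3 counts at 0.108 to 0.178 CPM, which covers counting error only. A gene was called uncertain where 50-base words of its exons or the exons themselves occur in other genes. Promoter sequences are from RefSeq (GRCm38.p6).

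The gene lists, gene pairs and the group itself were chosen with earlier results of these data known, so no list received a test. The text names members of the lists and pairs, the most abundant genes, the genes of largest and smallest spread, and those by which 1 tumor lies farthest from the other 3. Lists without the Mup genes, without Spp1 and without Apoe and Fn1, and levels per 1000 TPM of Alb, were added after the values were seen. Treated tumors were left out, and some genes and gene pairs are not reported here.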

Additional observations from a re-analysis of the deposited data

Results flagged for a closer look

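In a group of 4, a tumor was singled out where its gap to the nearest other tumor divided by the whole range exceeded Dixon's critical value. Chance singles out about 1 in 20 groups, and 8.34% of the 16963 detected genes passed this limit. It was passed by 4 of the 46 list shares and by 25 of the 228 named genes above the floor. Some genes, among them Saa1, Saa2, Orm2, Saa3, Olfr1454, Gm10800, Gm21738, Gm47283 and Spp1, were named because 1 tumor lay far from the others, so these values are a description.

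Tumor 4 was alone in the progenitor share (0.371%), which Spp1 (3092 TPM) led, and in the hypoxia share (0.0891%). It was also alone at the low end in Car9 (6.78 TPM), Ndrg1 (163 TPM), Ldha (828 TPM) and Tpt1 (4209 TPM). At the high end it stood alone in genes of liver cells, namely Fgfr4 (23.9 TPM), Pklr (27.4 TPM) and the sinusoidal gene Stab2 (11.9 TPM). The same held for Lgr5 (0.720 TPM), Mycn (2.21 TPM) and Tlr9 (3.17 TPM).

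Tumor 5 was alone at the high end in the fibroblast share (0.473%) and in the exocrine share (0.00366%). It was so too in Col1a1 (718 TPM), Onecut2 (41.2 TPM), Saa3 (26.0 TPM), Olfr1454 (16.0 TPM), Gm10800 (213 TPM), Gm21738 (108 TPM) and Gm47283 (339 TPM), and at the low end in the checkpoint receptor gene Tigit (21.8 TPM).

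Tumor 1 was alone in the acute phase genes Saa1 (589 TPM), Saa2 (536 TPM) and Orm2 (312 TPM) and in Ccnd1 (408 TPM). Tumor 3 was alone in the chemokine gene Cxcl9 (148 TPM) and in the Y-linked gene Eif2s3y (56.3 TPM).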

How the results depend on the processing

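No paired analysis was possible because a single group was described and no groups were compared. The number of detected genes, the number of genes holding 50% of all TPM and the correlations between tumors stayed within 1.5 times or 1 SD of their values under each alternative run. Mean list shares moved by more than 1 SD in few settings. With protein-coding genes only, the shares became 0.0909% for replication (from 0.0797%), 0.0956% for mitosis (from 0.0838%), 0.0409% for sinusoid, 0.104% for pan-leukocyte, 0.621% for class II, 0.0420% for sensor, 0.0575% for interferon and receptor and 0.00361% for exocrine genes. The same setting leaves out receptor and immunoglobulin constant genes, and the T cell share fell to 0.0197% (from 0.0503%) and the B lineage share to 0.0712% (from 0.156%). With the longest transcript as length they were 0.112% for pan-leukocyte, 0.0344% for sensor and 0.00497% for exocrine genes, and without mitochondrial genes 0.0397% for sensor and 0.0544% for interferon and receptor genes. Without Spp1 the progenitor share was 0.0845% (from 1.16%), and without Apoe and Fn1 the macrophage share was 0.585% (from 1.21%), both chosen after seeing the data. With 1 tumor at a time left out, mean log2 ratios that changed sign ran from -1.15 to 0.00 for Mat2a over Mat1a (highest without tumor 4), from -0.69 to 0.29 for the ketohexokinase pair (highest without tumor 4) and from -0.07 to 1.31 for glycogen synthase (lowest without tumor 5). A pseudocount of 1 gave -6.59 for fructose bisphosphatase, -2.50 for branched chain aminotransferase and -5.19 for insulin-like growth factor, and the longest transcript 7.64 for lactate dehydrogenase, -1.52 for glycogen phosphorylase and -3.90 for branched chain aminotransferase. Median SDs of log2 CPM, with 1 tumor at a time left out, were 0.51 to 1.43 for liver factor, 0.81 to 1.56 for pericentral, 0.27 to 0.51 for hypoxia, 0.28 to 0.57 for lymphatic and mesothelial, 0.31 to 0.67 for Kupffer, 0.51 to 1.01 for neutrophil, 0.38 to 0.86 for mast cell, 0.25 to 0.49 for immediate early, 0.27 to 0.57 for heat shock and 0.20 to 0.36 for widely used genes, each lowest without tumor 4. They were 0.38 to 0.58 for epithelial, 0.42 to 0.71 for NK, 0.20 to 0.42 for sensor and 0.75 to 1.70 for acute phase genes, each lowest without tumor 5. They were 0.16 to 0.27 for interferon and receptor genes, lowest without tumors 3 or 5 (0.17), and 0.49 to 0.90 for B lineage genes, lowest without tumor 1. With no filter beyond 1 count the neutrophil value was 1.39. The median gene-wise dispersion of DESeq2 was 0.0478 against the common value of 0.115 of edgeR. The causes of these shifts were not tested. With 4 tumors in 1 group, depth limits statements on genes near 3 reads, such as Ly6g and the interferon genes.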

Other observations

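Cholesterol and fatty acid synthesis genes, a list of 20, took 0.124, 0.147, 0.314 and 0.0736% of TPM. Of the 20, 15 were highest in tumor 4, against 28.7% of all genes, and 16 lowest in tumor 5, against 34.6%. Scd1, the desaturase gene of adult liver, was at 458, 844, 2119.8 and 169 TPM and made up most of that difference. Srebf2, which drives the cholesterol genes, was at 53.8, 39.5, 38.7 and 57.7 TPM. It was highest in tumors 5 and 1, unlike most of the list.

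Genes of the NRF2 and xenobiotic response took 0.152, 0.202, 0.369 and 0.167% of TPM. Gstm1, a glutathione transferase gene of liver, was at 332, 571, 1411 and 416 TPM, in a tumor order led by tumors 4 and 3. Nqo1, a common readout of NRF2, was at 6.53, 6.82, 6.95 and 6.01 TPM, and the cystine transporter gene Slc7a11 had a range of 0.742 to 1.52 TPM. The heme oxygenase gene Hmox1 was at 82.3, 95.1, 69.9 and 111 TPM, with most in tumor 5.

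Genes often used as references were about as even as the median gene, although their summed TPM differed between tumors. The 16 widely used genes took 4.54, 3.81, 2.75 and 4.37% of TPM, and 10 of 16 were lowest in tumor 4, against 26.1% of all genes. Their median SD of log2 CPM was 0.31, against 0.33 over all genes, and 7 of 16 lay above the latter value. Gapdh, a glycolytic enzyme gene, was at 1125, 872, 807 and 1363 TPM. The TATA-binding protein gene Tbp, at 5.98, 5.25, 5.04 and 5.16 TPM, varied 1.19-fold.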
